A study of Homo sapiens with 9 samples.

Results

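The 10 genes described here encode the NF-kB subunits (NFKB1, NFKB2, REL, RELA and RELB) and the feedback inhibitors and modulators of the pathway (NFKBIA, NFKBIE, NFKBIZ, TNFAIP3 and BCL3). Accessible chromatin at these genes was taken from 4 lists of FAIRE-seq peaks. Overlapping or touching peaks of the lists were joined into merged regions, and a region was counted for a gene when it lay in the gene body or within 50 kb of its transcription start site on GRCh37. This rule gave 45 regions at the 10 genes, of 40703 merged regions in all (autosomes and sex chromosomes) and of 20163 protein-coding genes. No region was counted for more than 1 of the 10 genes.

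NF-kB dimers are held in the cytoplasm of unstimulated T cells by the IkB proteins, of which IkBα (NFKBIA) and IkBε (NFKBIE) are the classical feedback inhibitors. Signals through protein kinase C release the dimers, which enter the nucleus, bind short κB sequences and activate many immune genes, their own inhibitors included. The p100 and p105 precursors (NFKB2 and NFKB1) and the nuclear IkB proteins (BCL3 and IkBζ, encoded by NFKBIZ) add further control, and the ubiquitin-editing enzyme A20 (TNFAIP3) switches off signalling upstream of the dimers.

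FAIRE-seq isolates DNA that is not held by protein after formaldehyde fixation, so that a peak marks open chromatin. The cells were Jurkat clone E6-1, an established human T-cell leukaemia line, and the stimulus was PMA, which activates protein kinase C, with a calcium ionophore (ionomycin in the labels). The labels give the 4 lists to non-stimulated cells (NS) and to cells stimulated for 4 h, washed and rested for 1 day (stimulus withdrawal, SW), each after DMSO or after 15 uM rottlerin for 1 h, rottlerin being used as a protein kinase C inhibitor. Each label had 1 library, and no list was given here for the other 5 of 9 samples (stimulated, restimulated and total input).

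The labels and the study's methods differ on what the lists are. By the labels, 2 of the 4 lists come from rottlerin-treated cells. The methods describe peak calling in DMSO samples alone, among them stimulated (ST) and restimulated (RS) cells, and give a shorter stimulation than the labels. Merged, the deposited lists gave as many regions as the methods state for the DMSO samples, so the count goes with the methods' reading and not with the labels. Under that reading the lists labelled SW DMSO, NS rottlerin and SW rottlerin would be those of ST, SW and RS cells after DMSO, in an order that was not determined. This takes the list labelled NS DMSO to be that of non-stimulated cells, which either reading allows. That was not checked, and the comparisons with this list rest on it. The other 3 are therefore named by their labels only, and no difference between them is read as an effect of stimulus withdrawal or of rottlerin. With 1 library per list there was no replicate error and no test between lists was possible, so intervals given for shares cover counting error only. Read depth is unknown, because the lists hold peaks and not reads.

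Peaks were listed with their fold enrichment over total input, which is called enrichment below. The lists held 18977 (NS DMSO), 20132 (SW DMSO), 23835 (NS rottlerin) and 30409 (SW rottlerin) peaks, and their median enrichment lay between 4.03 and 4.08. Of 10 T-cell and Jurkat marker genes, 8 had a region within 1 kb of the start site, against 0 of 7 markers of B, myeloid, epithelial and liver cells.

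κB sequences were present at most of the start-site regions of these genes. The NF-kB consensus, a 10-base sequence, was sought on both strands, and overlapping matches were counted as 1 site. The 45 regions held 23 sites, of which 15 lay in the region at the gene's own start site. Of the 8 start-site regions, 6 had no peak in the list labelled NS DMSO, and these 6 held 10 of the 15 sites. The 9 at NFKB2, REL, NFKBIA and BCL3 are shown here. Each stands in a run of 30 bases of GRCh37 written 5′ to 3′ on the strand of the match, with the matching bases in capitals.
NFKB2 site 1, plus strand, chr10:104153936-104153965: cttccccctGGGGATCCCCCgcttcagaga
NFKB2 site 2, plus strand, chr10:104154219-104154248: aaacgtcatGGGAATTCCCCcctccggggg
NFKB2 site 3, plus strand, chr10:104154247-104154276: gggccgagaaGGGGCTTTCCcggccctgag
REL site 1, plus strand, chr2:61108653-61108682: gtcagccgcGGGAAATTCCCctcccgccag
NFKBIA site 1, plus strand, chr14:35873159-35873188: caggcgcccaGGGACTTTCCgcccccctcc
NFKBIA site 2, plus strand, chr14:35874017-35874046: gtcaggctcgGGGAATTTCCaagccagtca
NFKBIA site 3, plus strand, chr14:35874273-35874302: ttctttccctGGGGTTTCCCacgatcgatt
BCL3 site 1, minus strand, chr19:45250762-45250791: ccgaaggtccGGGGCTTTCCcggatttccc
BCL3 site 2, plus strand, chr19:45251670-45251699: agcaggggtgGGGACACCCCcccacccccc
The sites of NFKB2 lay 83, 366 and 394 bp after its start site and that of REL 41 bp after its own. NFKBIA site 2 lay 76 bp and site 3 332 bp before the start site of NFKBIA, and its site 1 lay 782 bp after it. BCL3 site 1 lay 186 bp before the start site of BCL3 and its site 2 lay 722 bp after it.

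RELB and TNFAIP3, whose start-site regions had a peak in every list, held 5 more start-site matches. The first of TNFAIP3 lay 225 bp before its start site. The last 120 bases before that start are shown because the other 2 lay next to each other there, with mid-points 18 and 6 bp before it. Capitals mark both sites, which read on the minus strand.
TNFAIP3 start site, plus strand, chr6:138188231-138188350: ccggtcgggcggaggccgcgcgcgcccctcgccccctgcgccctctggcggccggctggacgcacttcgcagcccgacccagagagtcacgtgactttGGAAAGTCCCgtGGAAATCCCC
Those of RELB lay 124 and 52 bp before its start site.
RELB site 1, plus strand, chr19:45504581-45504610: gtgacgcgtgGGGGTTTTCCcgttccccag
RELB site 2, plus strand, chr19:45504653-45504682: cggcggcgccGGGGAATTCCgccgccccgc

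Across the 10 genes, 27 of the 45 regions had no peak in the list labelled NS DMSO. This was 60% of the regions (95% Wilson interval 45.5 to 73.0), against 53.5% of all merged regions and 51.7% of the 34248 regions at any protein-coding gene, so the share over all member regions lay near the background. Among these 27 regions, 10 had a peak in 1 other list, 10 in 2 and 7 in all 3. All 10 genes had at least 1 region without an NS DMSO peak, as did 79.5% of the protein-coding genes with a region. Such a share per gene rises with the number of regions at the gene. Members had 2 to 7 regions each, and the median was 3 over protein-coding genes with a region.

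A peak in all 4 lists was found in 14 of the 45 regions, or 31.1% (19.5 to 45.7), against 26.6% of all regions. A peak in every list but NS DMSO was found in 7, or 15.6% (7.75 to 28.8), against 7.08%. When each list was cut to an equal number of peaks this fell to 3 of 36 (8.33% against 5.67% of all regions). In the higher-scoring 50% of each list it fell to 2 of 28 (7.14% against 7.02%). When a list's peaks had to cover 50% of the region, it stayed at 7 of 45 (15.6% against 6.32%). The excess over the background thus depended on the setting. The 7 regions of the main count belonged to 6 genes (NFKB2, RELB, NFKBIA with 2, NFKBIE, NFKBIZ and TNFAIP3). Of protein-coding genes with a region, 21.4% had at least 1 of this kind, a share that also rises with the number of regions at a gene. A peak in NS DMSO alone was found in 1 region, at TNFAIP3, or 2.22% (0.393 to 11.6) against 7.83%. Both lists labelled SW and neither list labelled NS held 4 of the regions, or 8.89% (3.51 to 20.7) against 6.26%.

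The list labelled SW rottlerin, the longest, covered 42 of the 45 regions (93.3%, against 74.5% of all regions), and 8 regions were found in it alone. Without that list 37 of the 45 member regions and 33375 of the 40703 merged regions remained. The list labelled NS rottlerin covered 31, the list labelled SW DMSO 26 and the list labelled NS DMSO 18, or 68.9%, 57.8% and 40% against 58.4%, 49.3% and 46.5% of all regions. NS DMSO was the only list that covered a smaller share of the member regions than of all regions. Its 40% and 46.5% restate the 60% and 53.5% without an NS DMSO peak given above, a difference that lay near the background. Without the list labelled SW rottlerin, 19 of 37 member regions had no NS DMSO peak (51.4%), against 43.3% of all regions.

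**Figure D1:**
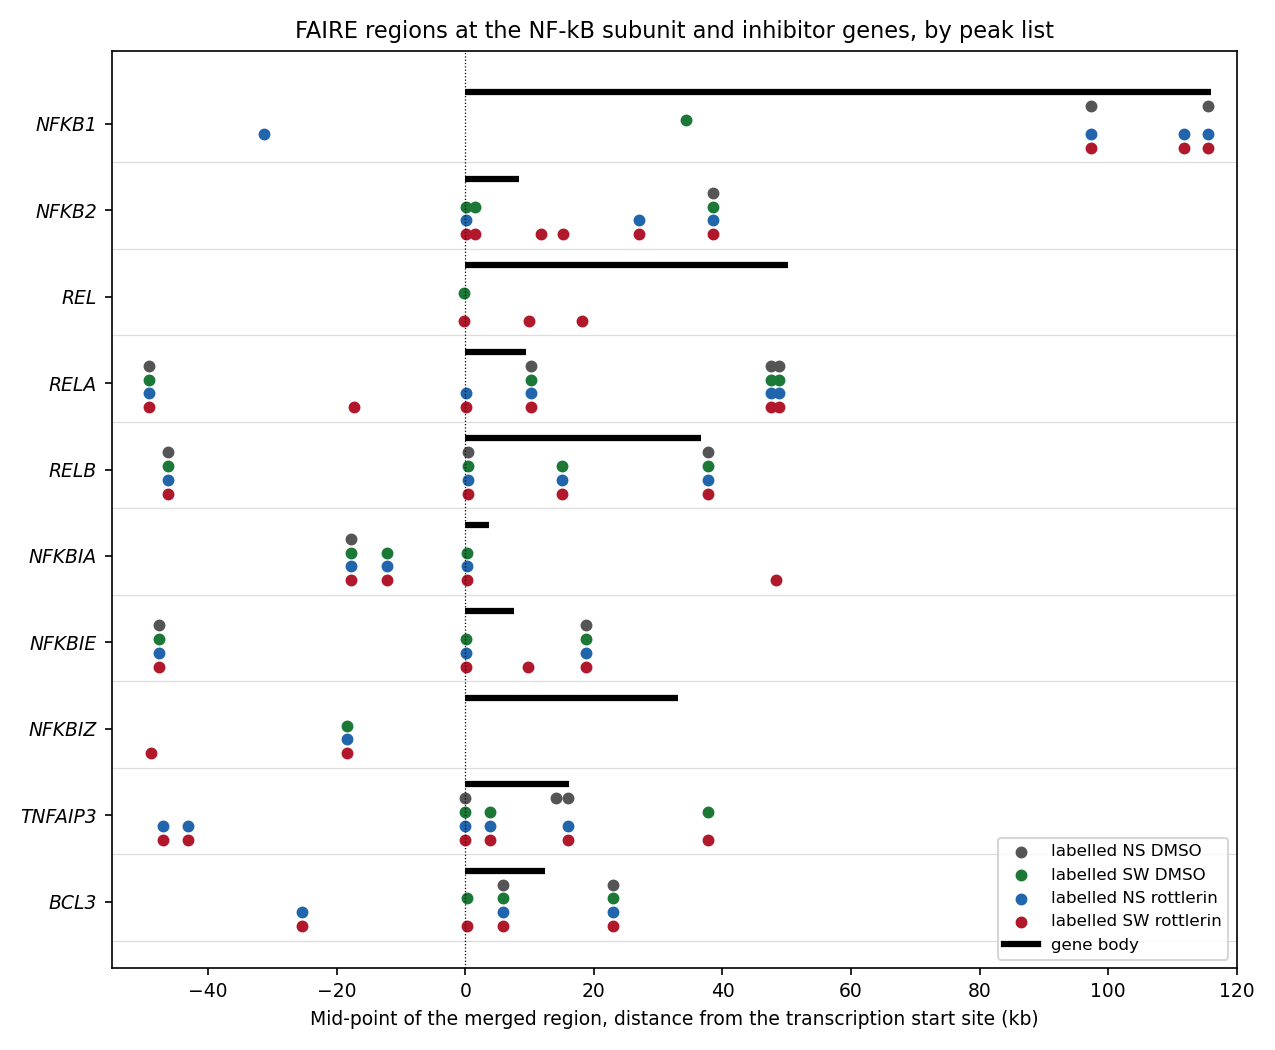
Each row is a gene, with its body as a black bar, and each point is a peak of 1 list placed by the mid-point of its merged region in kb from the transcription start site (negative values are upstream). At the start site itself, points of the list labelled NS DMSO stand only at RELB and TNFAIP3, while 8 of the 10 genes have points of other lists there.

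**Figure D2:**
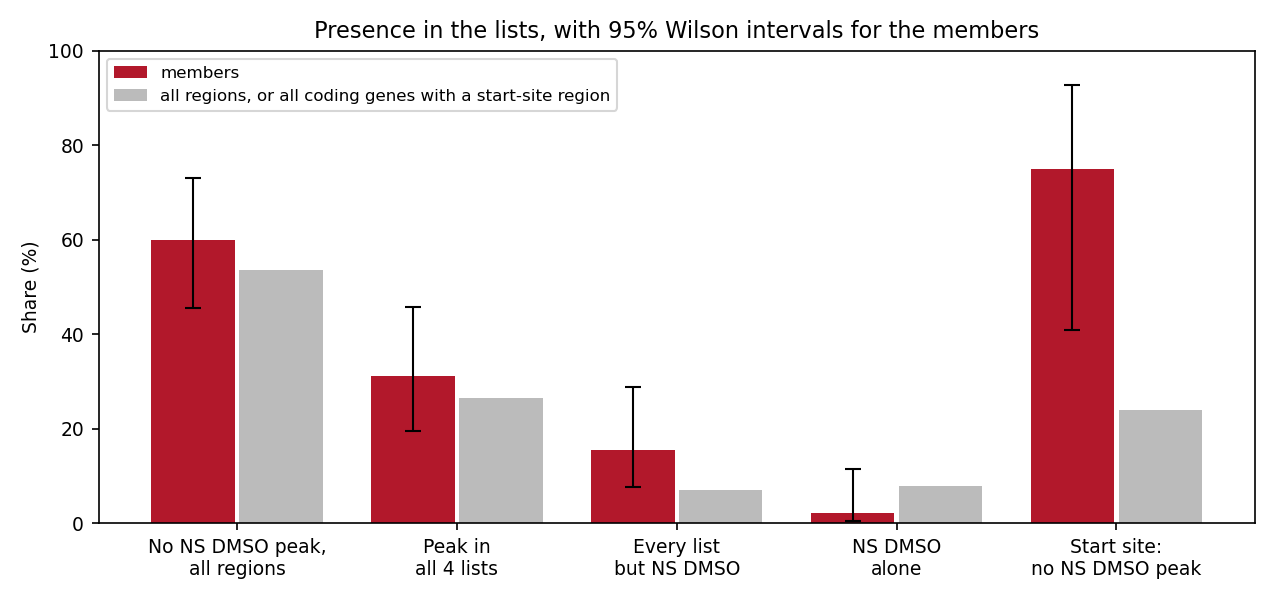
Red bars give the share (%) of the 45 member regions, or in the last pair of the 8 members with a start-site region, in each class of presence, with 95% Wilson intervals, and grey bars the same share over all regions or all coding genes with a start-site region. The grey bar lies inside the interval in the first, the second and the fourth pair, just under it in the third (7.08% against a lower bound of 7.75%, a gap that closes when the lists are cut to the same number of peaks) and well under it in the last (23.9% against 75%).

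The widest gap between the members and the background was at the start sites. A region within 1 kb of the start site was found for 8 of the 10 members, or 80% (49.0 to 94.3), against 44.9% of protein-coding genes. NFKB1 and NFKBIZ had none. Of the 8, only RELB and TNFAIP3 had a start-site peak in the list labelled NS DMSO. The other 6 (NFKB2, REL, RELA, NFKBIA, NFKBIE and BCL3) had none, which was 75% (40.9 to 92.9), against 23.9% of the 9058 protein-coding genes with a start-site region. In all 6 the peak was found in 2 or 3 of the other lists, a pattern that 14.2% of those genes showed. Some of these peaks ranked low in their lists. The highest rank was above 15.1% of the list's peaks at REL, 21.1% at BCL3 and 39.1% at NFKB2. It was above 50.1% at NFKBIA, 76.1% at NFKBIE and 76.3% at RELA. Whether the missing NS DMSO peaks fell just under the caller's threshold was not tested.

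Counted by list, the start sites of 2 of the 10 members had a peak in NS DMSO, or 20% (5.67 to 51.0) against 34.2% of protein-coding genes. In the list labelled SW DMSO 7 had one, or 70% (39.7 to 89.2) against 35.4%. In that labelled NS rottlerin 6 had one, or 60% (31.3 to 83.2) against 38.5%, and in that labelled SW rottlerin 8 had one, or 80% (49.0 to 94.3) against 42.5%. The members' share lay below the background in NS DMSO and above it in each of the other 3, and the background was outside the interval in the 2 lists labelled SW. The 6 of 8 without an NS DMSO peak stayed 6 of 8 when the same number of highest-scoring peaks was taken from each list (18.4% of coding genes with a start-site region), and also without the list labelled SW rottlerin (18.2%). These settings were chosen after the values were seen.

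**Figure D3:**
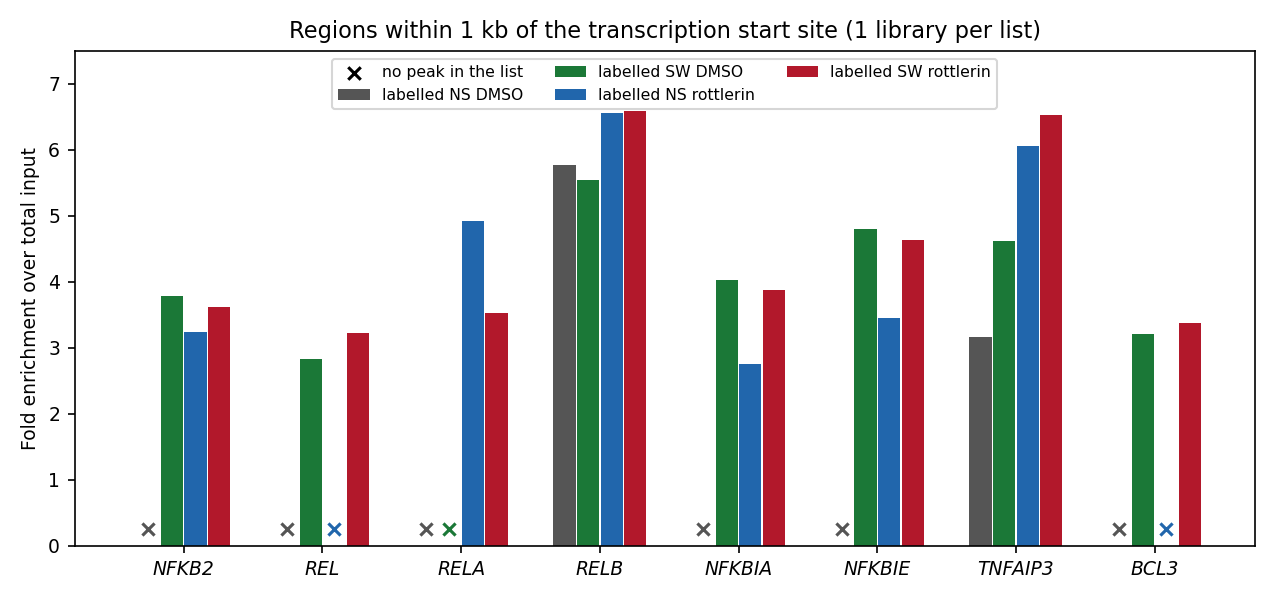
Bars give the enrichment over total input in each list at the 8 start-site regions, and crosses mark lists without a peak, where no value is listed. NS DMSO has a bar only at RELB (5.77) and TNFAIP3 (3.16), and TNFAIP3 is the gene whose bars differ most between lists, from 3.16 to 6.53.

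Among the subunits, NFKB1, which encodes p105 and its product p50, had 5 regions and none at the start site. Its strongest region lay in intron 15 (chr4:103519517-103520024, 97.3 kb after the start site), with an enrichment of 6.39 in NS DMSO, no peak in SW DMSO, 4.58 in NS rottlerin and 4.11 in SW rottlerin. NS DMSO was the highest list there, above 95.7% of the peaks of its list. A region in intron 22 (chr4:103533998-103534515) had no peak in NS DMSO or SW DMSO, 3.89 in NS rottlerin and 3.06 in SW rottlerin, and lay 392 bp from the start of a shorter annotated transcript. The other 3 regions were in intron 4 (3.32 in SW DMSO alone), 31.3 kb upstream (4.28 in NS rottlerin alone) and in the untranslated part of exon 24 (4.04 in NS DMSO, no peak in SW DMSO, 5.21 in NS rottlerin and 4.72 in SW rottlerin). No consensus match was found in any of the 5.

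NFKB2 encodes p100, the inhibitor precursor of p52 in the non-canonical pathway, and 5 of its 6 regions had no NS DMSO peak. At its 5′ end (chr10:104153736-104154318, with sites 1 to 3 shown above) the enrichment was 3.79 in SW DMSO, 3.24 in NS rottlerin and 3.62 in SW rottlerin. A second region, 1.55 kb downstream (chr10:104155311-104155525), covered the start site of the canonical transcript and had 2.90 in SW DMSO and 3.18 in SW rottlerin, with no peak in either list labelled NS. It held site 4, which lay just upstream of that start and is shown because it was the only site inside that region.
NFKB2 site 4, plus strand, chr10:104155431-104155460: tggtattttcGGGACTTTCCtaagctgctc
A region 27.0 kb downstream, at the start site of PSD, had 2.62 in NS rottlerin and 3.36 in SW rottlerin. The sixth, 38.6 kb downstream at the start site of CUEDC2, was in every list, with 4.55 in NS DMSO, 4.82 in SW DMSO, 5.26 in NS rottlerin and 5.16 in SW rottlerin, and was the strongest at NFKB2. The remaining 2 were found in SW rottlerin alone, at 3.32 and 3.19.

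REL encodes c-Rel, the subunit best known for its role in lymphocyte activation. None of its 3 regions had a peak in a list labelled NS. The start-site region (chr2:61108100-61108793) had 2.83 in SW DMSO, above 3.08% of the peaks of that list, and 3.23 in SW rottlerin, above 15.1%, so both peaks were among the weaker ones. The strongest region, in intron 1 (chr2:61118379-61118648), was found in SW rottlerin alone at 4.41, 209 bp from the start of a shorter transcript. The third, in intron 3, was also found in SW rottlerin alone, at 3.92, and held a κB site.

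RELA encodes p65, the main activating subunit of the canonical pathway. Its start-site region (chr11:65430395-65430604) had no peak in either list labelled DMSO, 4.93 in NS rottlerin and 3.52 in SW rottlerin. It was the only start-site region found in the lists labelled rottlerin alone, and the only one of the 8 without a consensus match. The other regions of RELA differed from it, since 4 of 5 were in every list. The strongest at any of the 10 genes lay 47.5 kb downstream between the start sites of MAP3K11 and PCNX3 (chr11:65382691-65383337), with 8.10 in NS DMSO, 7.29 in SW DMSO, 7.49 in NS rottlerin and 8.96 in SW rottlerin. At each list this was above at least 98.8% of its peaks. A region 10.2 kb from the start site, past the 3′ end of RELA, held a site and varied between 3.20 in NS DMSO and 3.56 in NS rottlerin.

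RELB encodes the partner of p52 in the non-canonical pathway, and its start site was open in all 4 lists. The region (chr19:45504536-45505600) had 5.77 in NS DMSO, 5.54 in SW DMSO, 6.55 in NS rottlerin and 6.59 in SW rottlerin, above 89.1% to 95.9% of the peaks of the lists, and was the strongest at RELB. A region in intron 4 (chr19:45519633-45519907, 15.1 kb after the start site) was the only region of RELB without an NS DMSO peak. Its enrichment was 3.77 in SW DMSO, 3.92 in NS rottlerin and 4.93 in SW rottlerin. The other 2 regions, at the start sites of CLPTM1 and CLASRP, were in every list with values between 3.21 and 4.29.

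Among the inhibitors, NFKBIA encodes IkBα, whose resynthesis ends the canonical response. Its start-site region (chr14:35873013-35874496), which covered the start site, exon 1 and sites 1 to 3, had no NS DMSO peak, 4.03 in SW DMSO, 2.76 in NS rottlerin and 3.87 in SW rottlerin. The value in NS rottlerin was above 2.11% of that list, those in the lists labelled SW above 50.1% and 43.3%. A broad region of 1713 bp lay 12.1 kb upstream (chr14:35885244-35886956) and had peaks in the same lists, with no NS DMSO peak, 4.52 in SW DMSO, 3.23 in NS rottlerin and 5.41 in SW rottlerin. It was the strongest region of NFKBIA and held no consensus match. Farther upstream, 17.8 kb before the start site, a region was open in every list, with 4.28 in NS DMSO, 4.41 in SW DMSO, 4.04 in NS rottlerin and 5.01 in SW rottlerin.

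NFKBIE encodes IkBε, an inhibitor that acts on c-Rel and p65 dimers. Its start-site region (chr6:44233283-44233614) had no NS DMSO peak, 4.79 in SW DMSO, 3.45 in NS rottlerin and 4.64 in SW rottlerin. As at NFKBIA, the 2 lists labelled SW were the higher ones. The neighbouring start sites of HSP90AB1 and AARS2, 18.8 kb after and 47.6 kb before the NFKBIE start site, had a peak in every list, between 3.41 and 4.84, and the AARS2 one in SW rottlerin (4.84) was the highest value at NFKBIE. The last region was found in SW rottlerin alone, at 2.69.

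NFKBIZ encodes IkBζ, a nuclear cofactor of p50, and had only 2 regions, neither in its gene body. The one 18.4 kb upstream (chr3:101528139-101528686) had no NS DMSO peak, 3.56 in SW DMSO, 3.52 in NS rottlerin and 4.06 in SW rottlerin. It was AT-rich, with 30% GC in its central 300 bases, and held none of the motifs searched. The other lay at the start site of NXPE3 and was found in SW rottlerin alone, at 3.46.

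TNFAIP3 encodes A20 and had the most regions, 7, with the widest range of presence. The start-site region (chr6:138187983-138188514) had 3.16 in NS DMSO, 4.62 in SW DMSO, 6.06 in NS rottlerin and 6.53 in SW rottlerin, which was 1.46, 1.92 and 2.07 times the NS DMSO value. Its place in the lists moved from above 11.0% of the peaks of NS DMSO to above 71.4%, 92.8% and 95.5%. A region in intron 1 (chr6:138191954-138192358, 3.81 kb after the start site) had no NS DMSO peak, 2.77 in SW DMSO, 3.38 in NS rottlerin and 3.21 in SW rottlerin, and lay 7 bp from the start of a shorter transcript.

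Distal regions of TNFAIP3 differed in the lists that held them. Those 47.1 and 43.1 kb upstream (chr6:138140961-138141564 and chr6:138144974-138145575) were found in the lists labelled rottlerin alone. The first had 2.92 in NS rottlerin and 4.52 in SW rottlerin, and the second 3.66 and 5.07. The one 37.8 kb downstream (chr6:138225670-138226669) was found in the lists labelled SW alone, with 3.28 in SW DMSO and 3.44 in SW rottlerin. In the untranslated part of exon 9, 1 region had a peak in NS DMSO alone (2.90, above 3.84% of that list), and a second had 3.44 in NS DMSO, no peak in SW DMSO, 4.20 in NS rottlerin and 4.61 in SW rottlerin.

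BCL3 encodes a nuclear IkB protein that binds p50 and p52 dimers. Its start-site region (chr19:45250756-45251777) had 3.21 in SW DMSO and 3.37 in SW rottlerin, with no peak in either list labelled NS, as at REL. A region 25.4 kb upstream (chr19:45225455-45225672) had 3.03 in NS rottlerin and 3.15 in SW rottlerin, with no peak in either list labelled DMSO. In intron 2, a region in every list held a site and had 2.92 in NS DMSO, 3.27 in SW DMSO, 2.98 in NS rottlerin and 4.64 in SW rottlerin, the last being the highest at BCL3. The region 23 kb downstream was in every list as well, with 2.68 in NS DMSO, 4.36 in SW DMSO, 2.97 in NS rottlerin and 3.42 in SW rottlerin.

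Where all 4 lists had a peak, the listed enrichments could be set side by side. They were not normalised between lists, and read depth is unknown, so the ratios are a description only. Over the 14 regions the median ratio to NS DMSO was 0.996 in SW DMSO, 1.05 in NS rottlerin and 1.14 in SW rottlerin, against 0.985, 1.04 and 1.08 over all regions with a peak in all 4 lists. The ratio was above 1 in 7 of the 14 regions in SW DMSO and in 11 of the 14 in each of the other lists. The share above 1 over all such regions was not counted. Their medians in NS rottlerin and SW rottlerin were themselves above 1, so these counts are not read as a trait of the members. At least 1.5 times the NS DMSO value was reached in SW DMSO by 1 of 14 (1.69% of all such regions), the downstream region of BCL3 at 1.62. In NS rottlerin it was reached by 1 (3.16%), the TNFAIP3 start site. In SW rottlerin it was reached by 3 (5.06%), which were the TNFAIP3 start site, BCL3 intron 2 at 1.59 and the MAP3K11 start site near RELA at 1.53. The lowest ratio was 0.879 in SW DMSO, at the start site of HSP90AB1 near NFKBIE, and 0.748 in NS rottlerin and 0.862 in SW rottlerin, both at the start site of CLPTM1 near RELB.

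**Figure D4:**
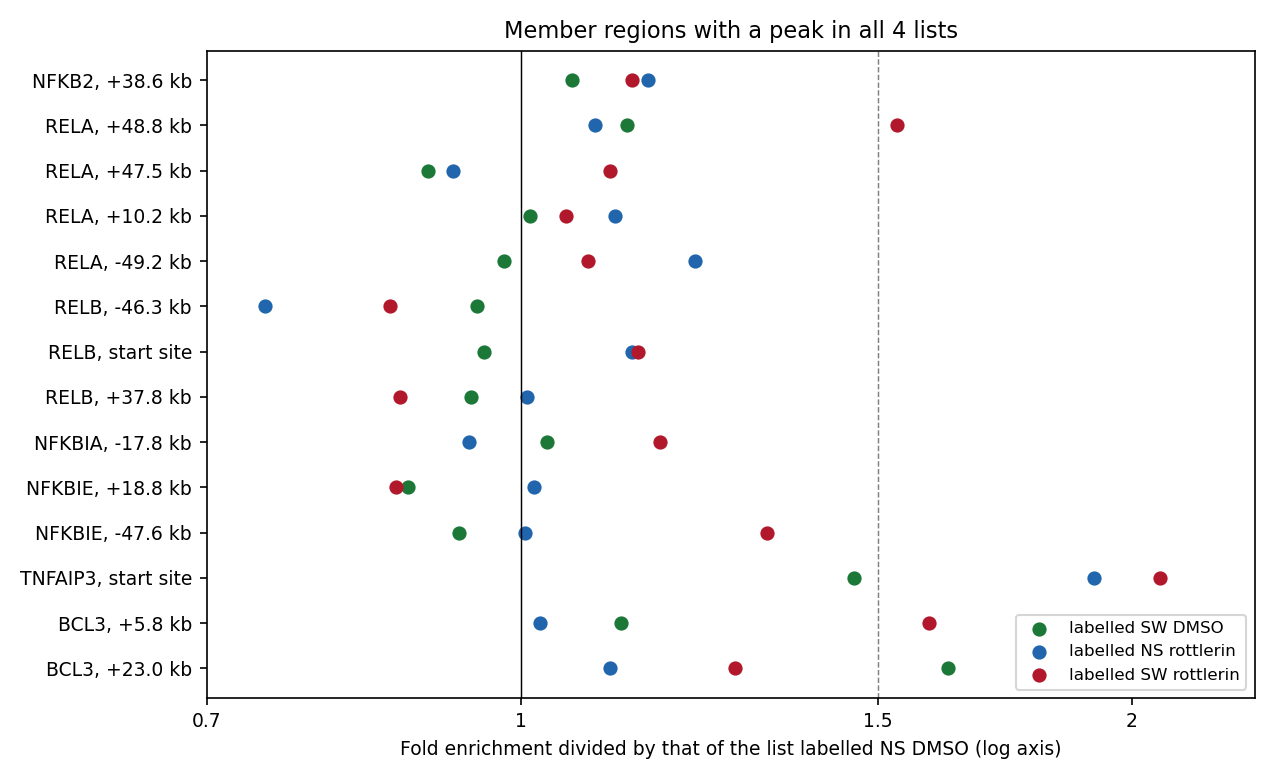
Each point is the enrichment of 1 list divided by that of the list labelled NS DMSO (log axis) at a member region with a peak in all 4 lists, the solid line marks a ratio of 1 and the dashed line 1.5. Points lie on both sides of 1, and only the TNFAIP3 start site has 2 points beyond the dashed line.

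Regions at start sites of neighbouring genes and away from start sites lay near the background. Of the 45 regions, 10 lay within 1 kb of the start site of another protein-coding gene, and 8 of the 10 were open in every list (80%, 49.0 to 94.3), against 64% of all regions at start sites of protein-coding genes. Of the 27 regions at neither kind of start site, 19 had no NS DMSO peak (70.4%, 51.5 to 84.1), against 59.9% of all regions away from start sites. Of the 27, 12 had their mid-point in the member gene and 15 lay outside it.

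In sequence, the member regions were richer in GC and in κB sites than the merged regions at large. The central 300 bases had a median GC content of 57% against 46.3%, and the 8 start-site regions had 72.3% against 64.7% for start-site regions of all protein-coding genes. Start sites were more common among the members, with 8 own and 10 of other genes in 45 regions, against 7883 of 40703. Among regions without an NS DMSO peak the median GC content was 47% against 44.3%. A consensus match in the central 300 bases was found in 9 of 45 regions, or 20% (10.9 to 33.8), against 4.33% of all regions. It was found in 5 of the 27 without and in 4 of the 18 with an NS DMSO peak, or 18.5% (8.18 to 36.7) and 22.2% (9.0 to 45.2), so these 2 groups were not distinguishable.

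Over the whole region, 7 of the 8 start-site regions held a match, against 10.3% of the 7883 start-site regions of protein-coding genes. The member regions were wider there, with a median of 638.5 bp against 394 bp, and over the central 300 bases of the same regions a match was found in 3 of 8 members, against 6.17%. Promoters of equal length were also compared. RefSeq promoters (250 bases before to 50 after a start, on GRCh38.p14) were given for all members but NFKBIE and RELB, 13 promoters of 8 genes, and 9 of the 13 held a match, against 5.91% of 35116 promoters. RELA was again the member without one. NFKB1 and NFKBIZ held matches in these promoters although none of the lists had a start-site peak there.

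The other motifs were not more frequent at the members than elsewhere, or rested on few regions. In the central 300 bases TGAGTCA (AP1) was found in 5 of 45 regions (11.1%, against 13.2% of all regions), TGGAAA in 10 (22.2% against 27.9%) and AGATAA, which GATA factors bind, in 5 (11.1% against 21.0%). CCGGAAGT (ETS) was found in 2 (4.44% against 2.20%), at the start sites of KAT5 and CLPTM1. Another κB sequence (GGG, 2 bases of any kind, then TTTCC) was found in 5 (11.1% against 2.04%), 1 of which, near NFKBIE, held no consensus match. A match to the consensus that ends in TTTCC and is followed by A holds TGGAAA on the other strand as well. A match is a description of the sequence and not a bound site.

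Of 36 other genes of the pathway, from kinases and adaptors to ubiquitin enzymes, 35 had a region. Of their 176 gene-region pairs, 99 (56.2%) had no NS DMSO peak, against 51.7% of regions at any protein-coding gene. A start-site region was found for 22. Of these 22, 10 had no NS DMSO peak there, against 23.9% of protein-coding genes with a start-site region. In 6 of the 22 the peak was missing in NS DMSO and found in 2 or 3 other lists, against 14.2%. TRAF2, an adaptor of the TNF receptors, had 5.66 in SW DMSO, 4.89 in NS rottlerin and 8.40 in SW rottlerin at its start site. BIRC3, a ubiquitin ligase and NF-kB target, had 4.14, 3.68 and 5.24, and NFKBID, a further nuclear IkB gene, had 2.95, 3.02 and 2.82. IKBKB, a kinase of the IkB kinase complex, had 2.59 in SW DMSO and 3.16 in SW rottlerin, and the related kinase IKBKE had 2.85 in NS rottlerin and 3.71 in SW rottlerin. A region with a peak in every list but NS DMSO was found at 15 of the 36 genes, against 21.4% of protein-coding genes with a region. Such a share per gene rises with the number of regions at the gene. The 36 genes held 176 pairs, while the median was 3 regions over protein-coding genes with a region, and no allowance was made for this. Among the 15 were PRKCQ, TRAF1, TRAF2, BIRC2, BIRC3, CYLD, TNIP2, TNIP3, NFKBID, OTULIN, ITCH, TNFRSF1A, TNFRSF1B and ZC3H12A. BIRC2 and BIRC3 are neighbours and share regions.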

How the data were processed

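FAIRE-seq peak lists of 4 Jurkat samples were analysed, 1 library each, grouped by their labels. Per the labels and the study's methods, the authors used cutadapt for adapters, Bowtie2 for alignment to hg19, Picard for duplicates and MACS2 for broad peaks, called per sample against total input. The labels also name HTSeq, and counts were not analysed here. Versions are not given in the sources used here. The deposited lists give each peak a fold enrichment over total input, a −log10 p and a −log10 q, and a score that equals the −log10 q times 10, rounded down. Listed q values reached 0.0983, above the q cut-off that the methods state, and those of member peaks reached 0.0543 (NS rottlerin).

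Peaks that overlapped by at least 1 bp or touched were joined, 40731 regions in all, of which 28 lay on other sequences than the autosomes and sex chromosomes and were not used. The highest enrichment stood for a list with several peaks in a region. Genes, start sites (the 5′ end of the gene) and exons came from GENCODE release 44 lifted to GRCh37, and 1 of 8 markers of other cells, PECAM1, had no protein-coding gene of that name there. Introns and exons were numbered in the canonical transcript. Sequences came from GRCh37, and promoters from RefSeq. Motifs were sought with Python 3 and pysam as exact letters on both strands.

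Shares have 95% Wilson intervals, which cover counting error only. With 1 library per label no test was made. The steps were tested on simulated peaks with known answers. The members, gene lists and motifs were chosen with earlier results of these data known. For each member the start-site regions, the region of highest enrichment and those without an NS DMSO peak but with 2 or 3 others were named, and other pathway genes where a region was in every list but NS DMSO or, chosen after the values were seen, at start sites. Some results at these genes are not reported here.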

Additional observations from a re-analysis of the deposited data

Results flagged for a closer look

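Under the labels, SW could be set against NS both after DMSO and after rottlerin, and the direction of 2 values differed between these comparisons. At the RELB start site the ratio of SW to NS enrichment was 0.959 in the lists labelled DMSO and 1.01 in those labelled rottlerin. Over the 14 member regions with a peak in all 4 lists the median ratio was 0.996 and 1.11. These differences were not tested, since each list is 1 library, and all 4 values lie near 1. The 2 ratios pointed in opposite directions in 6 of the 14 regions, and in 45.4% of all regions with a peak in all 4 lists. The labels of 3 of the lists are in doubt, since the merged lists hold as many regions as the methods state for the DMSO samples, and no direction is drawn from these values.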

How the results depend on the processing

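Of 66 alternatives over 13 results, 46 kept the value within 1.5 times for counts, within the interval for shares or within 0.05 for ratios, 18 moved it and 2 turned it. A distance of 10 kb gave 22 member regions, 14 of them without an NS DMSO peak and 4 in all 4 lists, and 100 kb gave 75, 44 and 22, with 4 in NS DMSO alone. The shares without an NS DMSO peak were 63.6% at 10 kb and 58.7% at 100 kb, against 53.5% of all merged regions at any distance. The higher-scoring 50% of each list gave 28 regions, with 7 in all 4 lists, 2 in every list but NS DMSO and 0 in NS DMSO alone. The same number of peaks per list left 3 in every list but NS DMSO. The share of member regions without an NS DMSO peak ranged from 50% (same number of peaks per list, against 41.5% of all regions) to 71.4% (without regions at start sites of other genes). For the latter no matching share over all regions was computed. Of all regions away from the start site of every protein-coding gene, 59.9% had no NS DMSO peak. Without the list labelled SW DMSO or that labelled NS rottlerin the share of member regions was 59.1%, against 51.4% and 49.3% of all regions.

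The median ratio to NS DMSO in SW DMSO turned to 1.00 after division by each list's median and to 1.07 at 10 kb, where those in NS rottlerin and SW rottlerin became 1.12 and 1.37 over 4 regions. The NF-kB consensus was found in 14 regions when whole regions were searched (31.1%, against 5.93% of all regions). The other κB sequence was found in 5 in the central 300 bases (11.1%, against 2.04%). For regions without an NS DMSO peak these counts were 8 and 3. Start-site counts were 5 of 6 without an NS DMSO peak in the higher-scoring 50% of each list, against 26.8% of coding genes with a start-site region. With the start of the canonical transcript they were 6 of 8, against 24.3%. Both settings were added after the data were seen. No paired analysis was possible because each label had 1 library. Peak lists without reads cannot show whether a missing peak fell just under the caller's threshold.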
